A study of Oncorhynchus mykiss with 16 samples.

Results

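Rainbow trout livers exposed to 50% municipal wastewater effluent (MWWE) were compared with livers of the upstream control. The comparison used 8 of the 16 arrays of the series: the 4 arrays titled 50% MWWE exposure liver and the 4 titled Control liver. All fish were juvenile Oncorhynchus mykiss, and the RNA came from whole liver tissue. Exposure took place in the field, at 10%, 50% or 100% effluent, while the control (0%) came from an upstream reference site. How long the fish were exposed, and how many made up a pool, is not given in the sources used here. Each array carried 1 pool of its group in one dye and a common reference, mixed from the RNA of every experimental sample, in the other. The 4 pools of a group are described as biological replicates. All values below are log2 ratios of a pool to that common reference, so 0 is the level of the mixture, unless a signal over background is named. The 10% and 100% groups, 4 arrays each, entered the fit only to estimate the spread and the dye effect, and they are described for 3 genes at the end.

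Municipal effluent is a mixture that can hold natural and synthetic estrogens, pharmaceuticals, ammonia and metals. The fish liver takes up and oxidises many such compounds, for example through cytochrome P450 enzymes, and in response to estrogen it makes the egg yolk precursor vitellogenin, also in juveniles. Liver transcripts are therefore widely used to follow what a fish has been exposed to. On this array the 152 genes carry plain numbers as IDs. None of the 152 IDs occurred among the gene IDs, locus tags, symbols or synonyms of the RefSeq gene table of rainbow trout. Genes are thus given by array ID, and neither a function nor a sequence is given for them. For the same reason the liver label could not be set against marker genes, and the prepared lists of estrogen, xenobiotic, stress and cell type genes were not used. In whole liver, fewer cells of a type and less RNA per cell cannot be told apart.

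Signals on these 8 arrays were dim. The median gene stood at 1.11, 1.04, 1.08 and 1.08 times its local background in the sample channel of 50% replicates 1 to 4, and at 1.07, 1.03, 1.04 and 1.09 times in that of control replicates 1 to 4. A gene was counted as above the blanks where its mean signal minus local background exceeded the mean of the array's 32 blank spots by 3 SD. In the sample channel this held for 124, 73, 108 and 101 of the 152 genes in the 50% pools, against 33, 84, 118 and 48 in the control pools. The groups overlapped, and the largest control count, of replicate 3, exceeded 3 of the 4 counts of the 50% pools. The permutation test below does not take the dye into account. Among pools labelled with Cy5 the counts were 73, 108 and 101 at 50% and 33 and 48 in control, and among those labelled with Cy3 they were 124 at 50% and 84 and 118 in control, so the overlap lay between pools of different dyes. As a share this was 66.8% ± 14.0 in the 50% group and 46.5% ± 25.1 in control (SD, n = 4 each), a difference of 20.2 percentage points with p = 0.229 in a two-sided exact permutation test. The common reference, the same RNA on every array, gave 57.6% ± 20.1 on the arrays of the 50% group and 45.4% ± 8.54 on the control arrays (exact permutation p = 0.314). Genes that passed this limit in every pool of a group numbered 66 for 50% effluent and 19 for control, and in the reference channel 43 and 30. Of 9 such array measures, which also included the backgrounds, the agreement of duplicate spots and the width of the ratio distribution, none passed Benjamini-Hochberg adjustment, with a smallest adjusted p of 0.478 in the exact permutation tests, whose smallest possible unadjusted p is 0.0286.

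**Figure D1:**
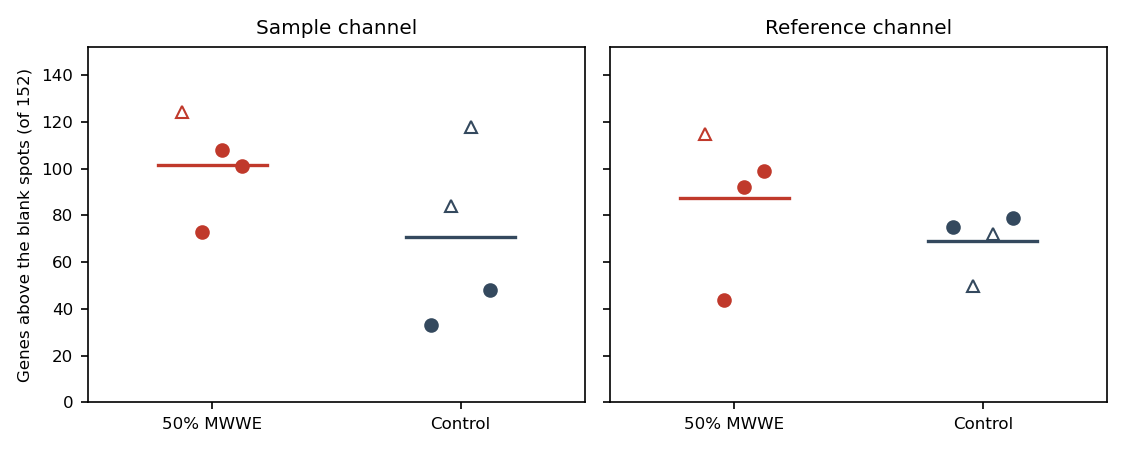
Number of the 152 genes above the blank spots on each array, in the channel of the liver pool (left) and of the common reference (right). Points are arrays (filled circles, pool in Cy5; open triangles, pool in Cy3) and lines are group means; in the sample channel the 50% pools span 73 to 124 genes and the control pools 33 to 118.

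Dye and background were spread unevenly over the groups. The 50% pool was labelled with Cy3 on replicate 1 and with Cy5 on replicates 2, 3 and 4. Control pools were in Cy3 on replicates 2 and 3 and in Cy5 on replicates 1 and 4. The Cy5 background had a median of 375, 593, 550 and 607 on the 50% arrays, against 446, 1599, 1800 and 418 on the control arrays. The control arrays of high Cy5 background were therefore the same as those with the pool in Cy3. Among the 50% arrays, the 3 pairs with pools in the same dye correlated across genes at 0.179 to 0.303 and the 3 pairs in different dyes at -0.255 to 0.00464. The control arrays gave 0.129 and 0.428 for the 2 pairs of the same dye and -0.126 to 0.219 for the 4 others. Pairs of 1 array from each group lay between -0.157 and 0.226. Genes are not independent replicates, and these correlations only describe the arrays. The fit had a term for the dye. Without 50% replicate 1 the 50% group held Cy5 pools only, and its dye adjustment then rested on the other groups. Fitted values without that array therefore moved with the dye adjustment as well as with its ratio.

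No gene of the 152 passed an adjusted p of 0.05 between 50% effluent and control by limma, or 0% of those tested. The smallest adjusted p was 0.683. Without adjustment, 5 genes had a p under 0.05: genes 73, 77 and 157 had higher levels in the 50% group, 1.97% of the genes tested, and genes 69 and 129 lower ones, 1.32%. If no gene differed, a share of about 0.05 would reach such a p. Leaving out 50% replicate 4 lowered the count of 5 to 2. It was 8 or 9 when 50% replicate 1 or 3 was left out and 10 when control replicate 4 was. Exact permutation tests over the 8 arrays gave 5 genes at the smallest p they allow, 0.0286. These were the genes described below whose values did not overlap between the groups. None of them was among the 5 genes under 0.05 by limma, which had p of 0.0571 to 0.143 in the permutation tests. No gene passed after adjustment, but a p of 0.0286 could pass over 152 genes only if most genes reached it. The adjusted permutation result therefore cannot tell whether single genes differed. The fitted differences had a median of -0.02, with the middle 50% of genes between -0.13 and 0.10, and 64 genes on the positive side against 88 on the negative side. Since each array was centred by the normalization, a shift shared by most genes would not appear in these values. The differences went from -1.45 for gene 121 to 1.02 for gene 131, the only genes beyond 2-fold.

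**Figure D2:**
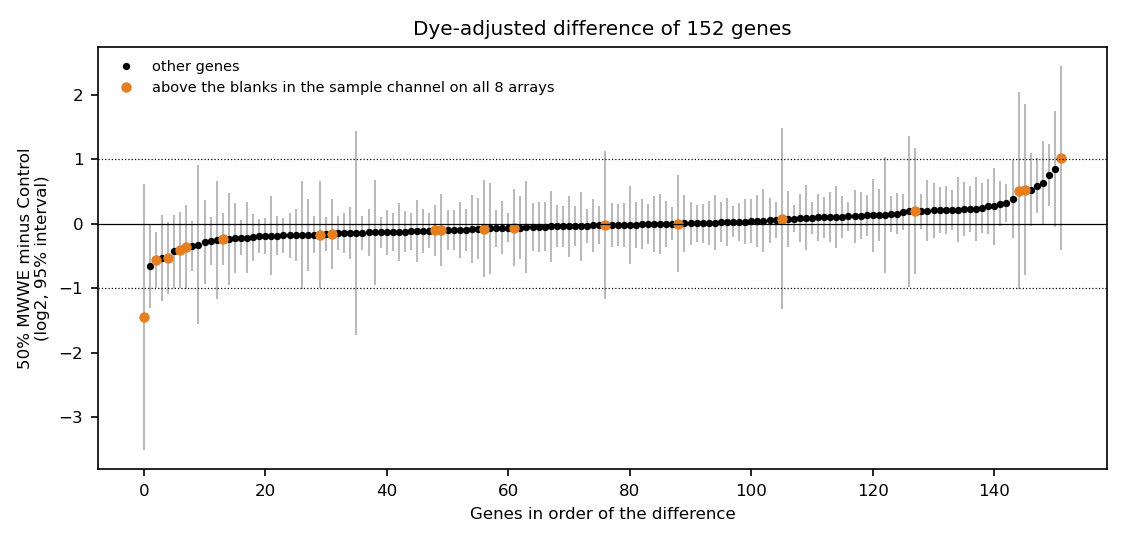
Fitted difference between 50% MWWE and Control for each of the 152 genes in order of size (log2, points) with its 95% interval (grey lines). Dotted lines mark a 2-fold difference; orange points are the 19 genes above the blanks in the sample channel on all 8 arrays, which hold both the lowest (-1.45) and the highest (1.02) value.

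These intervals give the range of differences that the fit allows for each gene, without adjustment over the 152 genes. A difference larger than the half-width of its interval could still miss the adjusted threshold. The half-width of the 95% interval had a median of 0.39, which is 1.31-fold. For 128 of the 152 genes (84.2%) the whole interval lay within a 2-fold difference either way, and for the other 24 it did not. That count depended on the background correction. It was 0 with plain subtraction of the background and 145 with no correction. The median SE was 0.18 in the main fit, 0.67 with plain subtraction and 0.04 with no correction. Among the genes above the blanks in the sample channel on at least 4 of the 8 arrays the count was 73 of 97. For the 19 genes above the blanks on all 8 arrays it was 8. The background correction of the main fit added an offset of 50 to each intensity, which draws ratios of dim signals towards 0. A narrow interval of a dim gene therefore does not exclude a 2-fold difference in its RNA. Pools of the same group differed about as much in both groups: the SD of a gene over the 4 pools had a median of 0.19 in the 50% group and 0.21 in control, and it was smaller in the 50% group for 81 genes and larger for 71.

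Gene 73 had the smallest p of all. It measured 0.27, 0.86, -0.08 and 0.31 in 50% replicates 1 to 4, against -0.66, -0.19, 0.30 and -0.72 in control replicates 1 to 4. Control replicate 3 lay above 50% replicates 1 and 3, and the 3 other control pools lay below all 50% pools. The fitted difference was 0.76 (SE 0.23, 95% interval 0.28 to 1.24, adjusted p 0.683 by limma), a 1.70-fold higher level. In the sample channel its spots stood at 2.24, 2.76, 2.93 and 3.15 times the background in the 50% pools and at 1.12, 1.06, 1.08 and 2.41 times in the control pools. Control replicate 4 lay within the range of the 50% pools and the 3 other control pools lay below it; these single-channel values also carry the brightness of the array. Both spots of the gene gave the direction of the mean, with plain differences of 0.83 and 0.49. Among pools labelled with Cy5 the difference was 1.06, and among those labelled with Cy3, with 1 pool of the 50% group, it was 0.21.

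Gene 77 measured -0.06, 0.15, 0.47 and 0.68 in the 50% pools, against -0.57, -0.08, 0.05 and -0.41 in the control pools. Only 50% replicate 1, the pool in Cy3, lay within the control range. The fitted difference was 0.59 (SE 0.20, 95% interval 0.16 to 1.02, adjusted p 0.791 by limma), a 1.51-fold higher level. Within the Cy5 pools it was 0.92 and within the Cy3 pools -0.05. The 2 spots disagreed on single arrays: on 50% replicate 4 they gave 0.13 and 1.23, and on 50% replicate 3 they gave 0.85 and 0.08. Gene 157 was dimmer, and above the blanks in 3 of the 50% pools and 1 control pool. Within the Cy5 pools it differed by 0.36 and within the Cy3 pools by 0.14. It measured -0.06, 0.24, 0.23 and 0.33 in the 50% pools, against 0.01, -0.05, -0.34 and -0.20 in the control pools, a fitted difference of 0.32 (SE 0.14) with an adjusted p of 0.990.

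The other 7 of the 10 genes of smallest p on the higher side were genes 51, 179, 78, 180, 113, 131 and 98. Gene 179 had a fitted difference of 0.85 (SE 0.42). It came from 50% replicates 3 and 4, at 1.24 and 1.42, while replicates 1 and 2, at -0.18 and -0.02, lay within the control range of -0.60 to 0.22. The spots disagreed: they gave 1.96 and 0.52 on 50% replicate 3, and -1.42 and 0.21 on control replicate 1. Within the Cy5 pools the difference of gene 179 was 1.45 and within the Cy3 pools -0.20. Gene 51 (0.63, SE 0.30) reached 1.01 in 50% replicate 4 and -0.93 in control replicate 1, and the 6 other pools lay between -0.20 and 0.14. On 50% replicate 4 its spots gave 1.72 and 0.30. Its difference was 0.83 within the Cy5 pools and 0.06 within the Cy3 pools, and 0.35 without 50% replicate 4. Gene 78 (0.53, SE 0.26) had the same direction within both dyes, at 0.51 for Cy5 and 0.72 for Cy3. Its groups overlapped: the spots of 50% replicate 3 gave -0.09 and -0.53. Control replicate 2 stood at 0.44, and the other control pools at -0.32 to -0.23. Gene 113 (0.20, SE 0.13) was within 0.06 to 0.27 in the 50% pools and within 0.06 to 0.08 in 3 control pools, with control replicate 1 at -0.36. Its difference was 0.06 without that array. Gene 180 was not above the blanks in any control pool and in 1 of the 50% pools, so no fold is given for it. Of the 10 genes, 7 were above the blanks in all 4 of the 50% pools and 1 in all 4 control pools. Over all 152 genes these counts were 66 and 19, so the imbalance was not particular to the 10. The 10 were also chosen on these same arrays for a higher level at 50%, so their counts are only a description.

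**Figure D3:**
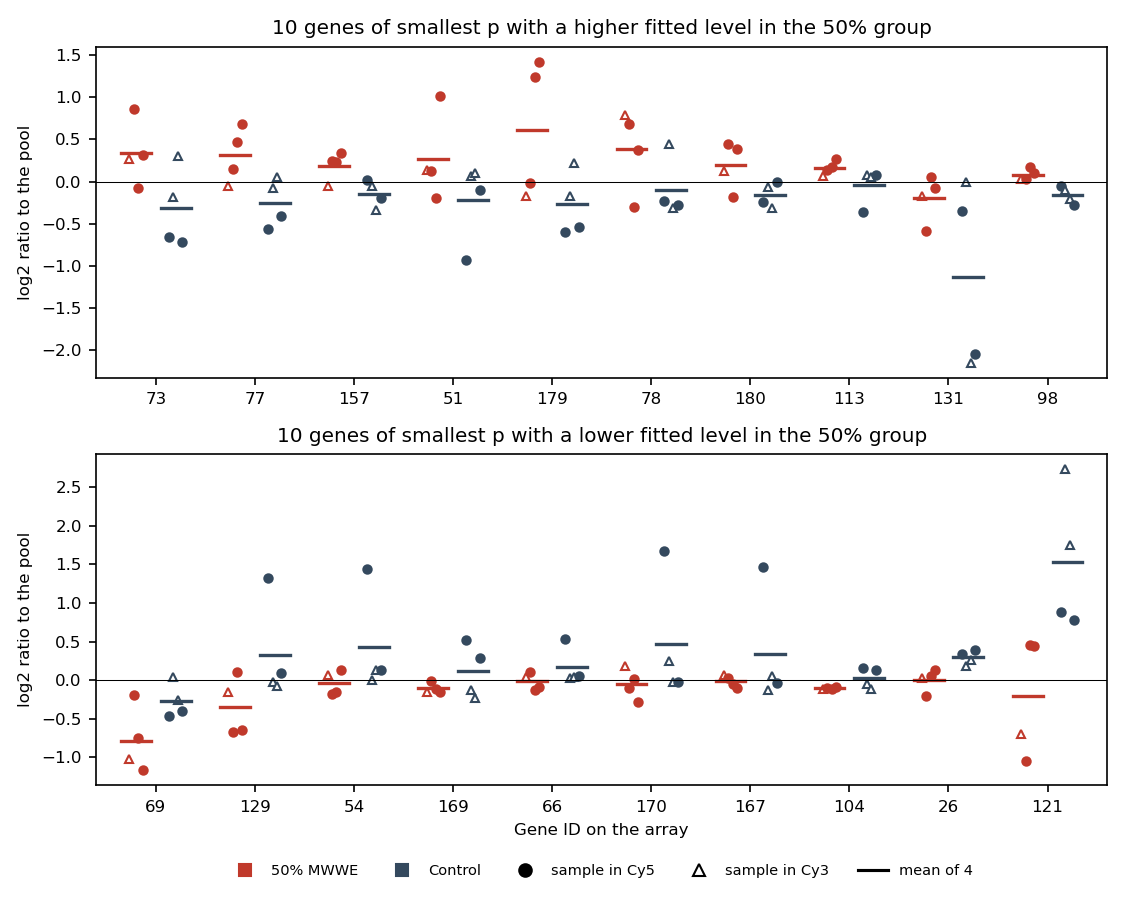
Log2 ratio to the common reference on each array for the 10 genes of smallest p with a higher (top) and a lower (bottom) fitted level in the 50% group, ordered by p. Red points are 50% MWWE pools and dark points Control pools (circles, Cy5; open triangles, Cy3), with lines at the mean of 4; in the lower panel control replicate 1 stands alone at 1.33 to 1.68 for genes 129, 54, 170 and 167.

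On the lower side, gene 69 had the smallest p. It measured -1.02, -0.20, -0.76 and -1.17 in 50% replicates 1 to 4, against -0.47, 0.04, -0.25 and -0.40 in control replicates 1 to 4. Of the 50% pools, 3 lay below all control pools, and replicate 2 lay within their range. The fitted difference was -0.56 (SE 0.21, adjusted p 0.819 by limma), a 1.47-fold lower level. Gene 69 was above the blanks in all 8 pools, at 1.40 to 1.72 times the background in the 50% pools and 1.04 to 2.40 times in the control pools. On 50% replicate 4 its spots gave -0.24 and -2.09, so the value of that array rests mostly on 1 spot. The difference was -0.27 within the Cy5 pools and -0.92 within the Cy3 pools.

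Several of the other genes on that side turned on 1 control array. Control replicate 1 held the highest control value for 7 of the 10 lower genes, against 54 of all 152 genes. The 10 were chosen on these same arrays, where a high control value favours the choice, so these counts are only a description. Gene 129 measured -0.16, -0.67, 0.10 and -0.65 in the 50% pools, against 1.33, -0.03, -0.07 and 0.09 in the control pools. Its fitted difference was -0.66 (SE 0.30, adjusted p 0.990 by limma), and it was -0.23 without control replicate 1. Gene 129 was above the blanks in 1 of the 50% pools and 1 control pool, so most of its values are ratios of signals near the blanks. Gene 54, above the blanks in all 8 pools, lay between -0.18 and 0.13 in the 50% pools and at 1.43, -0.00, 0.13 and 0.13 in the control pools. Its difference was -0.53 (SE 0.26), and -0.16 without control replicate 1. Gene 170 stood at 1.68 in that array and between -0.28 and 0.24 in the 7 other pools, and its difference of -0.53 was -0.03 without it. On control replicate 1 both spots of these genes were high: 1.00 and 1.65 for gene 129, 1.88 and 0.99 for gene 54, and 2.41 and 0.94 for gene 170. Within the Cy5 pools the differences of genes 129, 54 and 170 were -1.12, -0.85 and -0.96. Within the Cy3 pools, which do not hold control replicate 1, they were -0.11, -0.00 and 0.07. What set that pool or array apart was not tested.

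Gene 167 was not above the blanks in any of the 50% pools, and in 2 control pools. Where its 50% signals were lower than the lowest signal above the blanks on their array, they were raised to it. The mean control signal was then 1.27-fold higher, which is not a lower limit of a real difference. The fitted difference was -0.43 (adjusted p 0.990 by limma), and -0.01 without control replicate 1. That array stood at 1.47, and the 3 other control pools lay between -0.13 and 0.05. Genes 66 and 104 were likewise not above the blanks in the 50% pools. With those signals raised in the same way, control stood at 0.97 and 0.95 times the 50% group, so no fold is given for them. For gene 180, with control signals raised, the 50% group stood at 0.88 times control. For gene 34, described below, control stood at 1.01 times the 50% group. Gene 169 was above the blanks in 1 of the 50% pools and 2 control pools, so its values too lie near the blanks. It measured -0.15 to -0.01 in the 50% pools, against 0.52, -0.12, -0.24 and 0.29 in the control pools, a fitted difference of -0.34 (SE 0.18) that was -0.50 within the Cy5 and 0.03 within the Cy3 pools.

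Read without a model, 5 genes had values that did not overlap between the groups. Genes 98, 160 and 34 were higher in every 50% pool than in any control pool (1.97% of 152), and genes 26 and 121 were lower (1.32%). If the groups did not differ and their arrays were exchangeable, a share of about 0.0286 of genes would separate in either direction. Genes 160 and 34 lay outside the rule for named genes and are given because their values were seen not to overlap. Gene 98 measured 0.03, 0.03, 0.17 and 0.10 in the 50% pools, against -0.05, -0.10, -0.21 and -0.28 in the control pools. Its fitted difference of 0.21 (SE 0.14, adjusted p 0.990 by limma) was 0.27 within the Cy5 and 0.18 within the Cy3 pools, and 0.14 without control replicate 4. In the authors' deposited table, whose ratios ran smaller, it was 0.04. Gene 160, the only gene with 4 spots, measured 0.60, 0.09, 0.18 and 0.06, against -0.11, -0.34, -0.41 and -0.16 in the control pools. On 50% replicate 1 its spots gave 2.55, 0.47, -0.38 and -0.25, so the value of that array rests mostly on 1 spot. By spot, the plain differences of gene 160 were 0.91, 0.66, 0.04 and 0.34. Its fitted difference of 0.39 (SE 0.28) was 0.24 within the Cy5 and 0.97 within the Cy3 pools. Without 50% replicate 1 the fit gave 0.05, with a changed dye adjustment, although the other 50% pools still lay above all control pools. Gene 34 was not above the blanks in any 50% pool and in 1 control pool, so its values, 0.06 to 0.21 against -0.09 to 0.05, are ratios of signals near the blanks. Gene 26 measured 0.03, -0.20, 0.06 and 0.13 in the 50% pools, against 0.34, 0.18, 0.27 and 0.39 in the control pools. Its difference was -0.26 (SE 0.17), with -0.37 within the Cy5 and -0.19 within the Cy3 pools. The number of such genes was 12, 9 and 13 without 50% replicates 1, 2 and 3, and 8, 11 and 9 without control replicates 2, 3 and 4. Fewer pools overlap less often by construction.

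The brighter genes had larger errors in the median. In all, 19 genes were above the blanks in the sample channel of all 8 pools, at a mean of 1.09 to 13.6 times the background. Of these, 6 had a positive and 13 a negative fitted difference, with a median of -0.10 beside -0.02 over all 152 genes. The control pools set this choice: 19 genes were above the blanks in every control pool, against 66 in every exposed pool compared. A high control signal therefore favours the choice, so these signs and their median are only a description. The median SE of the 19 genes was 0.35, against 0.17 for the other genes, and 1 of the 19, gene 69, had an unadjusted p under 0.05. In the 10 brightest, the 2 spots of a gene on the same array differed by 0.23 to 1.86 (medians over the 8 arrays), against a median of 0.19 over the genes with 2 spots.

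Gene 121 was the brightest by signal over background, at 5.99, 10.8, 18.9 and 17.9 times in the 50% pools and 5.49, 9.50, 4.44 and 35.8 times in the control pools. Its ratios were -0.70, -1.04, 0.45 and 0.44 in the 50% pools, against 0.88, 2.73, 1.75 and 0.78 in the control pools, with no overlap. The fitted difference was -1.45 (SE 0.96, 95% interval -3.51 to 0.61, adjusted p 0.990 by limma), a 2.73-fold lower level. Without the dye term it was -1.75. Leaving out 50% replicate 1 gave -0.74, in a fit whose dye adjustment also changed. The spots disagreed widely: on control replicate 2 they gave 5.68 and -0.22, and on 50% replicate 2 they gave 0.33 and -2.42. Averaged over pools, both spots gave about the same difference, -1.72 and -1.78. Within the Cy5 pools the difference was -0.88, and within the Cy3 pools -2.94.

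Gene 131 stood between -0.58 and 0.05 in the 50% pools. In control, replicates 1 and 2 were at -0.35 and -0.01, and replicates 3 and 4 at -2.15 and -2.05. The fitted difference was 1.02 (SE 0.66, adjusted p 0.990 by limma), and it was 0.65 without control replicate 3, 0.99 within the Cy5 and 0.91 within the Cy3 pools. Gene 130 was at 2.21 in 50% replicate 1, where both spots were high (2.08 and 2.33), and between -0.10 and 0.59 in the other 50% pools, against -0.28 to 0.52 in the control pools. Its difference of 0.53 (SE 0.62) was 0.67 without the dye term, 0.01 within the Cy5 and 2.27 within the Cy3 pools. In the Cy3 pools that array is the only one of the 50% group. Without that array the fitted difference was -0.42, a value that also carries the changed dye adjustment. Gene 144 measured 0.57, 0.34, 0.40 and 1.42 in the 50% pools, against -0.85, 1.38, 3.50 and -0.06 in the control pools, a difference of 0.08 (SE 0.65). Gene 37 measured -1.76, -0.16, -0.12 and -0.96, against -0.14, -0.37, -0.21 and -2.24 in the control pools, a difference of -0.02 (SE 0.54). For genes 144, 37, 48 and 93 the sign differed between the dyes: 1.18, 0.78, 0.86 and 0.37 within the Cy5 pools and -1.87, -1.47, -1.08 and -0.71 within the Cy3 pools. Gene 68 had a difference of 0.51 (SE 0.71) that was 0.83 without the dye term, 0.11 within the Cy5 and 1.48 within the Cy3 pools. It was 0.08 without 50% replicate 1, where the dye adjustment changed. The ratio of that array was not extreme: its spots gave 0.32 and 0.42, against 1.44 and 1.06 on 50% replicate 2. Gene 52 had one of -0.10 (SE 0.26), and -0.07 within either dye.

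**Figure D4:**
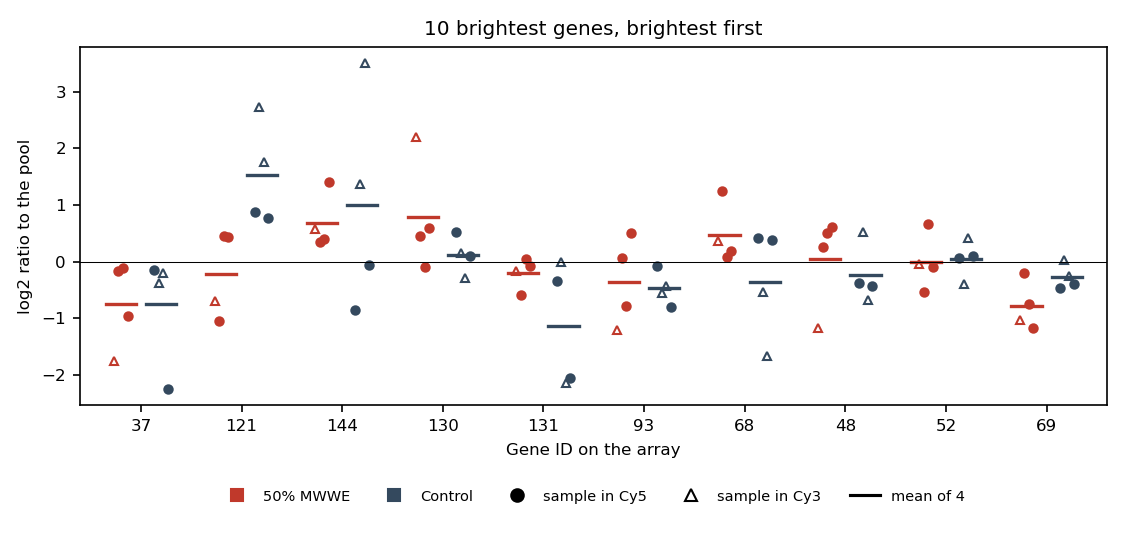
Log2 ratio to the common reference on each array for the 10 brightest of the genes above the blanks in all 8 pools. Red points are 50% MWWE pools and dark points Control pools (circles, Cy5; open triangles, Cy3), with lines at the mean of 4; the groups do not overlap for gene 121 and overlap for the other 9.

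Within the dyes, the direction was often not shared. The difference between 50% and control had the same sign among Cy5 pools (3 of the 50% group and 2 control) and among Cy3 pools (1 and 2) for 72 of the 152 genes, and opposite signs for 80. Of the 20 genes of smallest p, 13 had the same sign in both. These 20 were chosen on all 8 arrays together, so that count is a description. Arrays of low Cy5 background alone gave the same differences as the Cy5 pools. Among them only the 50% group held pools of both dyes, so that group alone set the dye term. No control array of low background held its pool in Cy3. Dye and Cy5 background cannot be told apart in control.

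Genes 73, 77 and 69 were also read at the other concentrations. They were chosen by their p between 50% and control, and the same 50% arrays enter these comparisons. That choice favours an extreme mean at 50%, so its rank among the 4 groups is only a description. On 3 of the 4 arrays of the 10% group, replicates 1, 2 and 4, the Cy5 background had a median of 4943, 4884 and 5600, far above the 50% arrays, and 10% replicate 4 ran against its dye label in the authors' deposited table. Gene 73 averaged -0.32 ± 0.48 at 0%, -0.30 ± 0.26 at 10%, 0.34 ± 0.39 at 50% and -0.28 ± 0.39 at 100% effluent (SD, n = 4 each). The 50% group was the highest of the 4. With 10% replicate 4 turned, the 10% mean was -0.06 ± 0.43 and the fitted difference between 50% and 10% effluent 0.40 (SE 0.25, adjusted p 0.459 by limma). Its fitted differences by limma were 0.75 (SE 0.23, adjusted p 0.394) from the 10% group and 0.83 (SE 0.24, adjusted p 0.265) from the 100% group. Gene 77 averaged -0.25 ± 0.29, 0.01 ± 0.16, 0.31 ± 0.33 and -0.17 ± 0.33 in the same order, and differed by 0.33 (SE 0.20, adjusted p 0.661) from the 10% group and by 0.54 (SE 0.21, adjusted p 0.554) from the 100% group. Gene 69 averaged -0.27 ± 0.22, 0.22 ± 0.29, -0.78 ± 0.43 and -0.09 ± 0.20. It was 1 gene of 152 (0.658%) past the adjusted threshold between 50% and 10% effluent, at -1.05 (SE 0.21) with an adjusted p of 0.0226 by limma. Of the 10% pools, replicates 1 and 2 were labelled with Cy5 and replicates 3 and 4 with Cy3. Replicates 1, 2 and 4 were of high Cy5 background. Gene 69 measured 0.58, 0.34, -0.02 and -0.00 on 10% replicates 1 to 4, highest in the Cy5 pools. With the background class as a block its difference was -0.90 and the adjusted p 0.358, and on the arrays of low Cy5 background, with 1 array of the 10% group, the difference was similar in size and the adjusted p 0.998. The call was also lost without 50% replicate 1, 3 or 4 (adjusted p 0.134, 0.0753 and 0.0811) and without 10% replicate 1 or 2 (0.154 and 0.108). It held with 10% replicate 4 turned (-1.01, adjusted p 0.0346 by limma) and without the dye term (adjusted p 0.0297). It also held without 50% replicate 2 (adjusted p 0.00226) and without 10% replicate 3 or 4 (0.0410 and 0.0411). These alternatives were added after the data had been seen. Between 50% and 100% effluent, gene 69 differed by -0.79 (SE 0.22, adjusted p 0.265), and no gene passed (0%).

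**Figure D5:**
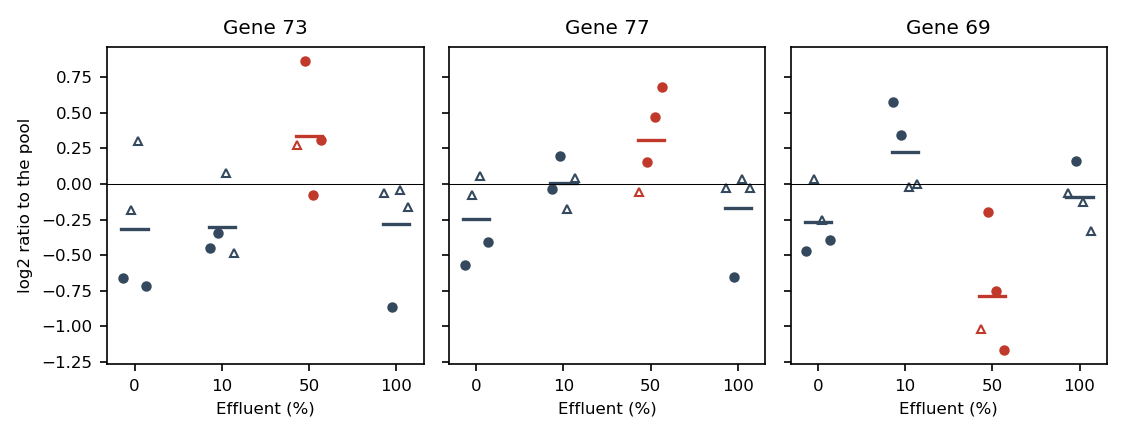
Log2 ratio to the common reference of genes 73, 77 and 69 on each of the 16 arrays by effluent concentration. Points are pools (circles in Cy5, open triangles in Cy3, red for 50%) and lines the mean of 4. The 50% mean is the highest for genes 73 (0.34) and 77 (0.31) and the lowest for gene 69 (-0.78). The genes were chosen on the same 50% arrays, which favours this rank.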

How the data were processed

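Per the labels' protocols, total RNA was turned into aminoallyl cDNA and coupled to Cy3 or Cy5. The authors deposited, per array and spot, the mean intensity of signal and local background in both channels, neither subtracted nor normalized, per the file headers. A deposited table of log2 ratios was used as an alternative. Its log base and direction are unstated and were read from its match to the scanner values: r was 0.705 to 0.927 on 15 arrays and -0.671 on 10% replicate 4, and its columns have medians of -0.00820 to 0.00597.

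Intensities were corrected with normexp (offset 50) and normalized by loess (span 0.3) within arrays, with control spots at weight 0, in limma 3.58.1 (R 4.3.3). Ratios were turned to pool over reference by the dye of channel 1. The labels list the treatment under the channel of the mixture, while titles and sources put the pool in channel 1. Spots of a gene were averaged. One fit over 16 arrays held 4 group means and a dye term (11 residual degrees of freedom), and p-values were Benjamini-Hochberg adjusted over 152 genes. With 1 array per pool, they measure pool and array spread together. Named genes are the 10 of smallest p in each direction and the 10 brightest of those above the blanks in all 8 pools. For that choice, brightness was the mean signal minus local background in the sample channel of the 8 pools. Genes, rules and lists were chosen with earlier results of these data known. The fit was tested on simulated log ratios with a dye effect. These held no dim signals and no background, so that test does not cover those features of the arrays. The number of arrays limits the precision. Same-numbered pools did not deviate together (r of -0.0912 to -0.00605).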

Additional observations from a re-analysis of the deposited data

Results flagged for a closer look

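Among 76 sets of 4 pools that were checked, 8 had 1 pool that stood apart by Dixon's criterion. About 3.8 would by chance among sets not chosen by their values. The 8 flagged genes had been named by their p or brightness on these same arrays, so these numbers cannot be set against each other. All 8 were control sets. Control replicate 1 stood apart for 6 genes. It was high for gene 129 (1.33, where the other control pools lay at -0.07 to 0.09), gene 54 (1.43, others -0.00 to 0.13), gene 66 (0.54, others 0.03 to 0.05), gene 170 (1.68, others -0.03 to 0.24) and gene 167 (1.47, others -0.13 to 0.05), and low for gene 113 (-0.36, others 0.06 to 0.08). Control replicate 2 was high for gene 78 (0.44, others -0.32 to -0.23). Control replicate 4 was low for gene 37 (-2.24, others -0.37 to -0.14).

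Between 50% and 10% effluent, gene 69 differed by -1.05 in a test of that difference, a call that was lost with the Cy5 background class as a block (adjusted p 0.358 by limma). The spots named Q entered no comparison. On the 50% arrays, 62.5% of their Cy3 values and 69.6% of their Cy5 values exceeded the blank limit, and on the control arrays 62.5% and 42.9% did (56 values each). Of the blank spots themselves, 0.781% or fewer exceeded it.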

How the results depend on the processing

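No gene passed an adjusted p of 0.05 under 23 of 24 alternatives. The exception was the authors' deposited table of log ratios, whose values ran smaller. There 1 gene passed, gene 73, at 0.35 (adjusted p 0.0465 by limma, and up to 0.991 over its alternatives). With the replicate block no gene passed, and 7 had an unadjusted p under 0.05. That count of 5 was 10 with no background correction, 1 with median centring, 12 with the deposited ratios, 9 on arrays of low Cy5 background, 8 with 10% replicate 4 turned, 8 within the Cy5 pools, 8 within the Cy3 pools (with 1 pool at 50%, assumed to vary like the other groups), and 2 to 10 with 1 array left out. The fits within a dye were chosen after the data had been seen. Aquantile scaling changes no ratio by construction. Intervals within 2-fold numbered 0 with plain subtraction and 73 of 97 tested with dim genes left out. Non-overlapping genes numbered 2 with plain subtraction, 2 with median centring, 3 with the deposited ratios and 6 to 13 with 1 array left out. Between 50% and 10% effluent, 1 gene passed; 0 did with the Cy5 background class as a block, and 0 to 1 with 1 array left out.

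Signs turned for genes that had not passed; the causes were not tested. With no background correction gene 104 was at 0.0084, gene 144 at -0.40, gene 93 at -0.16, gene 48 at -0.037, gene 52 at 0.049 and gene 34 at -0.0027. With plain subtraction gene 66 was at 1.07 and gene 144 at -0.37. With median centring gene 37 was at 0.18 and gene 93 at -0.10. With the deposited ratios gene 113 was at -0.0022, gene 104 at 0.0080, gene 93 at -0.21, gene 52 at 0.030 and gene 34 at -0.019. Without the dye term gene 144 was at -0.31, and in the 8 arrays alone gene 93 at -0.015. With the replicate block gene 144 was at -0.0058 and gene 93 at -0.015. With the Cy5 background class as a block gene 37 was at 0.26 and gene 93 at -0.044. With array weights gene 37 was at 0.19. Gene 37 was at 0.78 on arrays of low Cy5 background and within the Cy5 pools. Within the Cy3 pools genes 77, 179 and 113 were at -0.047, -0.20 and -0.0091, genes 169, 66, 170 and 167 at 0.031, 0.0053, 0.075 and 0.10, and genes 144, 93 and 48 at -1.87, -0.71 and -1.08. With 1 array left out, gene 37 ranged from -0.67 to 0.48, gene 144 from -0.37 to 0.73, gene 130 from -0.42 to 0.85, gene 93 from -0.24 to 0.27 and gene 52 from -0.30 to 0.083. The ends at 0.48, 0.73, -0.42 and 0.27 were fits without 50% replicate 1, where the dye adjustment changed too.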

Other observations

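The spots named SSC passed the blank limit in 10.2% of their Cy3 and 3.91% of their Cy5 values on the 50% arrays, and in 4.69% and 0.781% on the control arrays (128 values each). Over all 152 genes, control replicate 1 held the highest of the 4 control values for 54 genes and the lowest for 45.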
